A study of Mus musculus with 18 samples.

Results

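The regions described here lie at the 3' ends of genes. They are the listed regions of the 19 mouse autosomes that come within 1 kb of the end of a protein-coding gene, on the strand of that gene, and that stay more than 1 kb away from every protein-coding transcription start. CD11b+ cells had 11825 such regions among 407396 autosomal regions, and CD4+ cells had 15363 among 547975. They covered the ends of 8369 and 10149 genes, or 40.2% and 48.8% of the 20807 autosomal protein-coding genes. The rule used position alone and no methylation value. Left out were regions near a gene end that also came within 1 kb of a start, 1631 for CD11b+ and 1912 for CD4+ cells.

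Whole-genome bisulfite sequencing, which reads unmethylated cytosines as thymine, was performed on splenic CD11b+ (myeloid) and CD4+ (T) cells, with 4 mice in each genotype for either cell type. Mutant mice (Dnmt3a R878H/+) carried 1 mutant copy of Dnmt3a, switched on in blood-forming cells by crossing a floxed R878H allele with Vav1-iCre, a Cre recombinase driven by a blood-lineage promoter. Controls (Dnmt3a+/+, called WT below) did not express the mutation. The study's name covers both Cre-positive Dnmt3a+/+ mice and Cre-negative carriers of the floxed allele, and which of them gave these libraries is not given in the sources used here. All were on the C57BL/6 background, adult, matched for sex and age, and their cells were enriched on magnetic columns. The 18 deposited entries stand for 16 cell preparations, since replicates 3 and 4 of the R878H/+ CD11b+ cells were each entered in duplicate. The tables hold only 1 mean per group for each region, without names, values of single mice or read depth. The first of the paired means was read as WT. Hence each value below is the authors' group mean in percent of CpG methylation, no error between mice can be attached to it, and no difference was tested. A loss is the WT mean minus the R878H/+ mean in percentage points, so a negative value is a higher level in R878H/+ cells. Where a pair of levels is given, the WT level comes first and the R878H/+ level follows. A large loss is one above 20 points, a limit of size and not of significance. Fewer cells of a type and a lower level in each cell cannot be told apart in such means.

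DNMT3A adds methyl groups to CpG sites that carry none, and R878H is a substitution in its catalytic domain that corresponds to the most frequent DNMT3A mutation of human clonal hematopoiesis and acute myeloid leukemia. Bodies of transcribed genes are densely methylated, and DNMT3A can be drawn to them by trimethylated lysine 36 of histone H3, a mark laid down behind RNA polymerase II towards the 3' end. The end of a gene holds the poly(A) signal, where the transcript is cut, and usually lies far from the CpG island of the promoter. In WT cells it is therefore normally a methylated place.

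The sequences below show what the regions look like at 4 gene ends with some of the largest losses in both cell types. Each is 300 bases of the region listed in CD11b+ cells, read from mm10 (GRCm38) on the strand of the gene and lying outside every annotated exon, with each CpG in capitals. The Cfap99 stretch (chr5:34326582-34326881, plus strand) is intronic sequence shortly before the gene end, and the Snx20 stretch (chr8:88627828-88628127, minus strand) is intronic as well. The Copz1 stretch (chr15:103300141-103300440, plus strand) and the Skida1 stretch (chr2:18039689-18039988, minus strand) lie past the end of their genes.
Cfap99: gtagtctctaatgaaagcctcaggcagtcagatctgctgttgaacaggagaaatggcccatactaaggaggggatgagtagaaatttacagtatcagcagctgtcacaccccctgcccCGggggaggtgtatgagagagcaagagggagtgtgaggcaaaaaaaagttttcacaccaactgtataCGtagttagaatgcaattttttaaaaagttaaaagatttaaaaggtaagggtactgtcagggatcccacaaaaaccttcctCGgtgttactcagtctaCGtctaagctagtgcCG
Snx20: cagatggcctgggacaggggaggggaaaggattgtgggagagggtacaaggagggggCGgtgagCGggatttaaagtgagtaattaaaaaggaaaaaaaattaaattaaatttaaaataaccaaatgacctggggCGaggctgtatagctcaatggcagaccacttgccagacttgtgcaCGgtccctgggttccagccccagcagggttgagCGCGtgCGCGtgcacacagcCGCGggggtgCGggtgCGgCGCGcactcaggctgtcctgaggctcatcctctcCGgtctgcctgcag
Copz1: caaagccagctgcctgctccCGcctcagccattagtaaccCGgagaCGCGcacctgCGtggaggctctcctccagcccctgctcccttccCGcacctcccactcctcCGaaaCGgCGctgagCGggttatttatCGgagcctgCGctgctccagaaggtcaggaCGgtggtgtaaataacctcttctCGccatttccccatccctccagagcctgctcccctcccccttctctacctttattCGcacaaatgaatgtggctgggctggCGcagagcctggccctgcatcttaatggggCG
Skida1: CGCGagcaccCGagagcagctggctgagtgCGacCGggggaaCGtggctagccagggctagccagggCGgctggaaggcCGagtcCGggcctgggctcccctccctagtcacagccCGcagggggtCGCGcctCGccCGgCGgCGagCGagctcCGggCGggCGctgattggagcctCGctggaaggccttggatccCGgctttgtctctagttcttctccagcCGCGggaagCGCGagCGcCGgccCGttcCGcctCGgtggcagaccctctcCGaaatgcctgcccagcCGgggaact
The stretch at Cfap99 held 5 CpGs, against 15 at Snx20, 17 at Copz1 and 33 at Skida1. Their GC content ran from 44.7% at Cfap99 to 72% at Skida1. The levels given below belong to the whole listed regions and not to these stretches, and the whole Cfap99 region had 36 CpGs over 987 bp.

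Gene-end regions were highly methylated in WT cells and lower in R878H/+ cells of both types. In CD11b+ cells the WT median over regions was 90.1% (quartiles 78.2% and 94.2%) and the R878H/+ median 82.9% (65% and 89.6%). In CD4+ cells the WT median was 91.3% (82% and 94.8%) and the R878H/+ median 83.8% (69.2% and 90.2%). The quartiles describe the spread among regions, not among mice. The median loss was 6.81 points in CD11b+ and 6.85 points in CD4+ cells. The R878H/+ mean was below the WT mean in 11047 regions of CD11b+ cells (93.4%, against 93.5% of all autosomal regions) and in 14608 regions of CD4+ cells (95.1%, against 95.5%). The lower level was thus about as frequent at gene ends as across the listed autosomes.

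Large losses were found at 879 gene-end regions in CD11b+ cells, or 7.43%, against 6.94% of all autosomal regions. In CD4+ cells they were found at 1054, or 6.86%, against 6.17%. Both shares lie close to the background. Regions around transcription starts had a higher share, with 12.1% in CD11b+ and 13.6% in CD4+ cells, and intergenic regions a lower one, with 5.75% and 5.09%. Other regions within genes stood at 7.31% and 6.3%, next to the gene ends. Gains above 20 points were rare, with 16 gene-end regions in CD11b+ cells (0.135%, against 0.209% of all autosomal regions) and 0 in CD4+ cells (against 0.00876%).

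The lower methylation was even along the gene end and showed no step at the end itself. In bins of 200 bp by the midpoint of the region, from 1000 bp before to 1000 bp after the end, the median loss ranged from 6.33 to 7.15 points in CD11b+ cells and from 6.25 to 7.12 points in CD4+ cells. These bins held 9586 and 12480 regions, and the midpoints of the others lay farther out. Regions with their midpoint before the end had a median loss of 6.61 points in CD11b+ and 6.63 points in CD4+ cells, and those with it at or past the end had 7 and 7.09 points. The regions that ran across the end, 2477 in CD11b+ and 3188 in CD4+ cells, had median losses of 7.15 and 7.3 points. In the last 200 bp inside the 1 kb limit 6.25% of regions in CD11b+ and 6.67% in CD4+ cells had a large loss, and in the first 200 bp outside it 6.84% and 6.02% did.

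**Figure D1:**
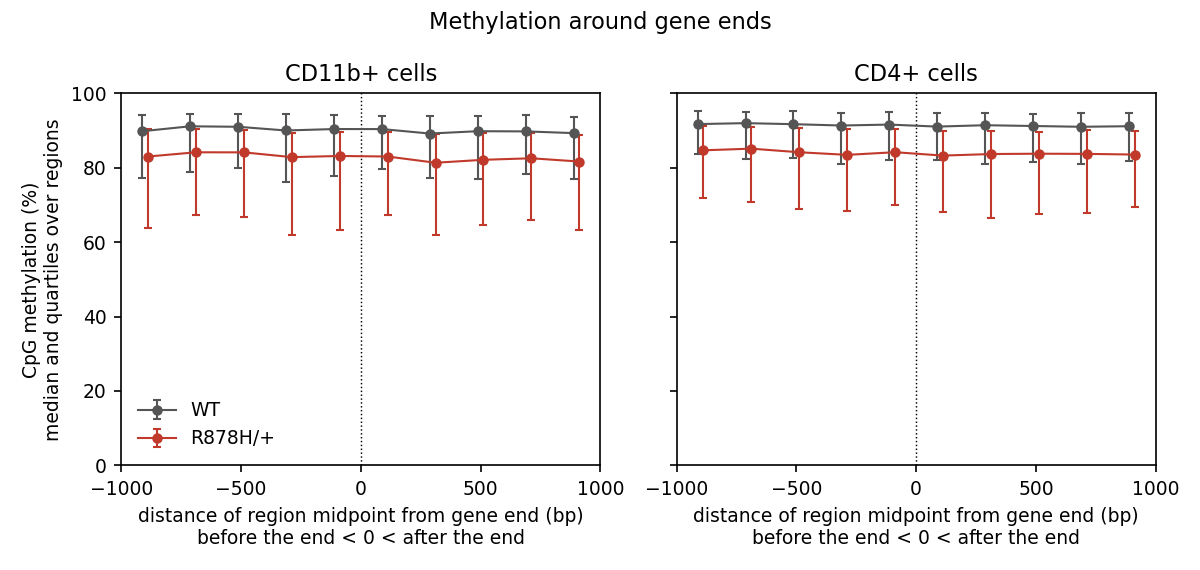
Median CpG methylation (%) of gene-end regions in bins of 200 bp by the distance of their midpoint from the gene end (bp), with WT in grey and R878H/+ in red; vertical bars are the quartiles over regions, not errors between mice. The R878H/+ medians lie below the WT medians in every bin of both cell types, and the median loss stays between 6.25 and 7.15 points.

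What the regions overlapped made a modest difference. Each region was assigned to the kind of annotation that covered most of its bases, counting every protein-coding gene and not only the one whose end was nearest. Those in coding sequence, 1050 in CD11b+ and 1295 in CD4+ cells, had the smallest median losses of the 4 kinds, 5.62 and 5.35 points. Only 82.8% and 87.6% of them were lower in R878H/+ cells, against 94% and 95.5% of the regions in 3' untranslated exons. Regions in 3' untranslated exons, 4186 and 5415, had median losses of 6.77 and 6.71 points. Regions mostly outside genes, 4493 and 5912, had 7.03 and 7.19 points. The share with a large loss varied little between these kinds, from 7.11% to 7.71% in CD11b+ and from 6.76% to 7.18% in CD4+ cells. Where the ends of 2 or more genes lay within 1 kb, 9.67% of 879 regions in CD11b+ and 9.73% of 1161 regions in CD4+ cells had a large loss, against 7.25% and 6.63% near a single end.

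The median loss varied more between WT levels than between positions along the gene end. Gene-end regions at 90% or more in WT cells had a median loss of 4.95 points in CD11b+ and 5.03 points in CD4+ cells. Only 11 of 5954 (0.185%) and 38 of 8622 (0.441%) had a large loss, against 0.253% and 0.39% of other autosomal regions at that level. At a WT level from 50% to 60%, the median loss was 16.7 and 15.8 points. Of these regions, 163 of 443 and 127 of 398 had a large loss (36.8% and 31.9%, against 33.8% and 30.2% of other autosomal regions). Regions from 30% to 80% in WT cells made up 22.2% and 18.3% of gene-end regions but 81.7% and 71.2% of those with a large loss. Other autosomal regions were much the same, with 23.1% and 19.5% in that range and 82.3% and 72.9% of their large losses. The loss is also bounded by the WT level, and as a percentage of that level it was largest at a WT level from 10% to 20%. Its median there was 53.9% of the WT level in CD11b+ and 52% in CD4+ cells, against 51.1% and 48% in other autosomal regions. At gene ends below 10% it was 20.5% and 41.8%, and at 90% or more 5.24% and 5.32%.

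Set against the other autosomal regions at the same WT level, gene-end regions had somewhat larger median losses over the upper middle of the range. At a WT level from 70% to 80%, the median loss was 13.2 points at gene ends and 11.6 points elsewhere in CD11b+ cells, and 13.6 and 11.6 points in CD4+ cells. From 80% to 90% it was 8.64 against 7.43 points in CD11b+ and 9.45 against 8.2 points in CD4+ cells. At 90% or more, the order held in CD11b+ cells, 4.95 against 4.86 points, but not in CD4+ cells, 5.03 against 5.19 points. Of the regions from 30% to 80%, 27.3% at gene ends and 24.7% elsewhere had a large loss in CD11b+ cells, and CD4+ cells had 26.7% and 23%. Base composition differed too, as the median GC content was 48.4% at gene ends and 46.2% over all autosomal regions in CD11b+ cells. In CD4+ cells these medians were 48.2% and 45.8%. GC content was not compared at equal WT levels, and its part in the difference in loss was not tested.

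**Figure D2:**
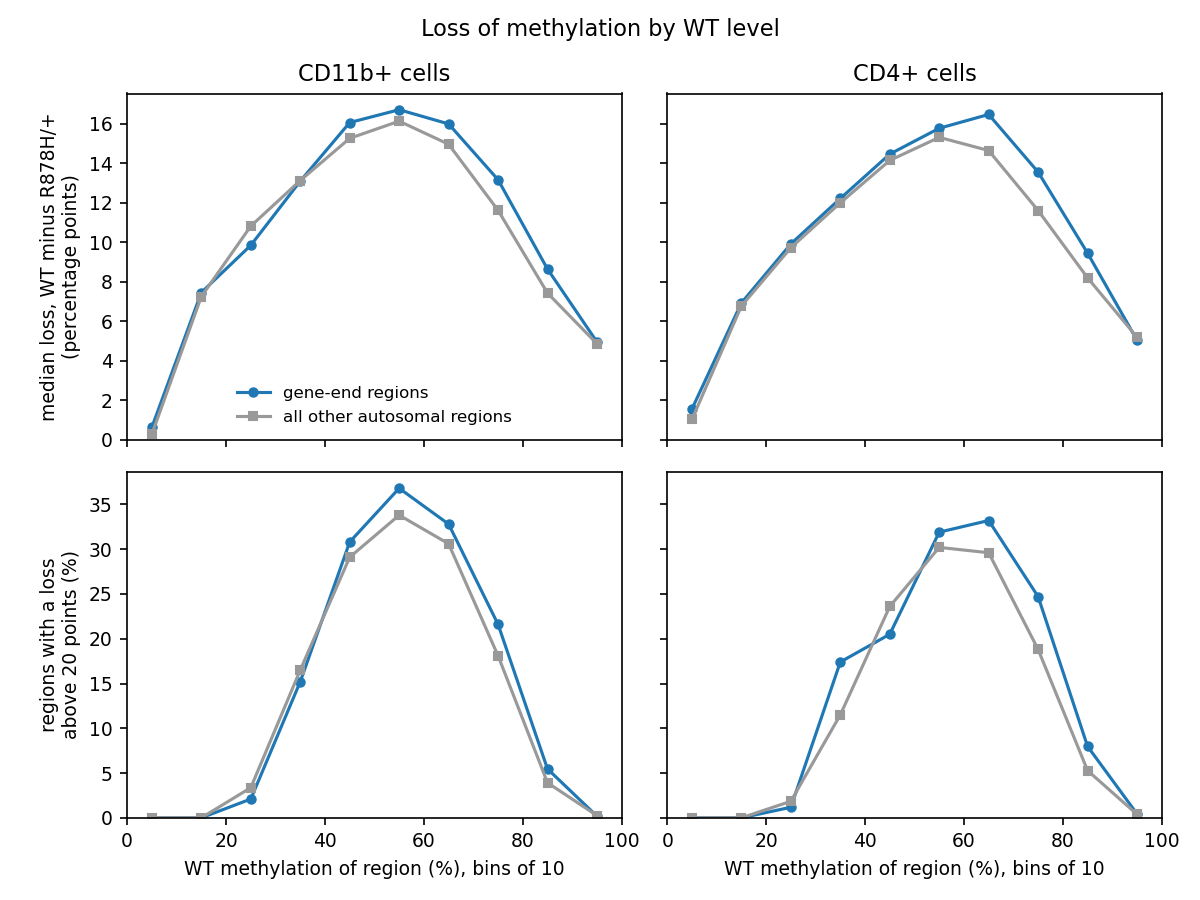
Median loss in percentage points (upper row) and share of regions with a loss above 20 points (lower row) against the WT methylation of the region in bins of 10%, for gene-end regions (blue) and all other autosomal regions (grey). Both curves peak between 50% and 70% WT methylation, and at 70% to 80% the gene-end medians of 13.2 and 13.6 points lie above the 11.6 points elsewhere.

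Regions that counted 16 or more CpG cytosines had larger losses. The authors formed the regions from these same methylation values, so the count of a region may itself depend on its loss. Each listed region counted at least 10 CpG cytosines over both strands, and most gene-end regions were at or near that minimum, with a median of 10 cytosines over 496 bp in CD11b+ and 475 bp in CD4+ cells. Of the 71 regions in CD11b+ cells with more than 30 cytosines, 46.5% had a large loss, and of the 110 such regions in CD4+ cells 43.6% did, against 6.59% and 6.15% of those with exactly 10. Other autosomal regions rose as well, from 6.42% and 5.65% with exactly 10 to 35.6% and 31.6% with more than 30. Just above the minimum there was no rise at gene ends, with 6.46% and 5.34% from 11 to below 16 cytosines. The WT medians of the gene-end regions with more than 30 cytosines were lower, 73.3% and 77.5%. The median loss, but not the share with a large loss, ran the other way for CpG density relative to base composition. With an observed-to-expected CpG ratio below 0.3 the median loss was 7.42 points in CD11b+ and 7.6 points in CD4+ cells, and with a ratio of 0.7 or more it was 4.1 and 4.58 points. The share with a large loss was 6.16% and 5.66% below 0.3, and 7.38% and 7.25% at 0.7 or more. Regions with a large loss were not longer than the others, with median lengths of 479 and 497.5 bp in CD11b+ and 471.5 and 475 bp in CD4+ cells. Regions built mostly of repeats had smaller losses, and with at least 50% of their bases marked as repeat, 1.72% of 582 in CD11b+ and 1.09% of 732 in CD4+ cells had a large loss, near the 1.64% and 1.49% of other autosomal regions of that kind. Ends of short genes had a large loss more often than ends of long ones, in 9.19% and 11.3% of regions at genes under 2 kb and 6.49% and 6.04% at genes of 50 kb or more. The distance to a start moved with this, as 11.9% and 9.85% of gene-end regions between 1 and 2 kb from a start had a large loss, against 5.56% and 5.74% of those more than 20 kb away. For other autosomal regions these shares were alike, 11.4% and 11.3% near a start and 5.58% and 4.72% far from it. Which of these features the loss follows was not tested.

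Regions at the same gene end could differ widely. At the 2709 ends with several regions in CD11b+ cells and the 3834 in CD4+ cells, the median range between the largest and smallest loss was 7.04 and 6.62 points, about as large as the median loss. Every region was lower in R878H/+ cells at 85.1% and 88.3% of these ends. A large loss was found in at least 1 region at 487 and 618 of them, and in every region at only 28 and 30. At most of these ends a large loss thus covered some but not all of the listed regions. Across chromosomes the share of gene-end regions with a large loss in CD11b+ cells ran from 4.46% of 426 on chromosome 13 to 9.56% of 429 on chromosome 19, where 6.89% and 7.95% of all regions of these chromosomes had one. In CD4+ cells it ran from 4.62% of 498 on chromosome 12 to 8.47% of 1417 on chromosome 11, against 5.63% and 7.49% of all their regions.

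The poly(A) signal was about as frequent at gene ends with a large loss as at all gene ends with a listed region. The letters AATAAA or ATTAAA were searched on the strand of the gene in the last 50 bases before its annotated end. They were found at 76.5% of the gene ends with a listed region in CD11b+ and 75.8% in CD4+ cells, at 74.6% and 76.8% of those with a large loss, and at 71.8% of all 20807 ends.

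At the largest losses shared by both cell types, gene ends that were mostly methylated in WT cells were mostly unmethylated in R878H/+ cells. Tmem98, which codes for a transmembrane protein, led them (chr11:80821218-80821630 in CD11b+ cells). Its region held 199 bp of coding sequence and 214 bp of 3' untranslated exon in CD11b+ cells, and 154 and 191 bp in CD4+ cells. It was at 78.1% in WT and 22.3% in R878H/+ CD11b+ cells, against 72.8% and 17.4% in CD4+ cells. The Cfap99 region (chr5:34326565-34327551), which spans the end of a gene for a cilia and flagella protein and contains the first sequence above, was at 70.3% and 20.7% in CD11b+ cells, and CD4+ cells had 72.8% and 18.5%. Cers1 codes for a ceramide synthase. The region past its end (chr8:70332098-70332354) was at 79.7% and 28.4% in CD11b+ cells, and CD4+ cells had 88.1% and 38.6%, and it also lies within 1 kb of the ends of Gdf1 and Upf1.

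Snx20 codes for a sorting nexin of leukocytes that binds the selectin ligand PSGL-1. Its region (chr8:88627211-88628353) had the most CpG cytosines of any gene-end region in CD11b+ cells, 105, and was at 85.7% in WT and 32.7% in R878H/+ CD11b+ cells. In CD4+ cells the matching region had 68 cytosines and was at 88.7% and 39.3%. It covers the intron stretch shown above together with coding sequence. Past the end of Copz1, a coat protein subunit of Golgi vesicles (chr15:103299938-103300971), the level was 68.2% and 20.2% in CD11b+ cells, against 82.9% and 35.6% in CD4+ cells. Past the end of Skida1, a gene with a SKI/DACH domain (chr2:18039655-18040113), it was 89.8% and 44% in CD11b+ cells, and CD4+ cells had 90.1% and 40.8%.

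The other ends of this group were those of Ccdc86, for a nucleolar coiled-coil protein, and Tead2, a transcription factor at the end of the Hippo pathway. The Ccdc86 region (chr19:10940927-10941272) lies past the end of that gene, mostly in coding sequence of another gene. It was at 69.8% and 24.1% in CD11b+ cells. In CD4+ cells it was at 70.4% and 25.6%. The Tead2 region (chr7:45234160-45234670) lies past the end of Tead2, in a 3' untranslated exon of another gene. It also lies near the end of Cd37, a tetraspanin gene of B cells. It was at 78.4% and 24.1% in CD11b+ cells, against 77.5% and 33.1% in CD4+ cells. Over these 8 ends and both cell types the loss ran from 44.5 to 55.8 points, and every R878H/+ mean was below every WT mean.

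**Figure D3:**
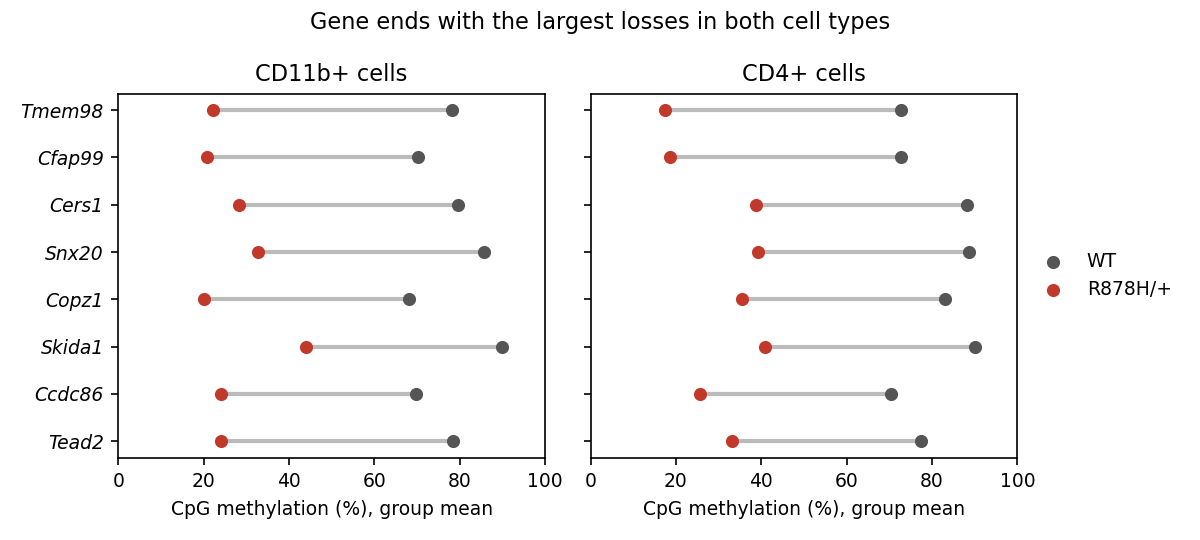
Group mean CpG methylation (%) in WT (grey) and R878H/+ (red) cells for the 8 gene ends with the largest losses in both cell types, each shown by its region of largest loss per cell type; there is no error bar because only group means were given. The topmost, Tmem98, has 78.1% in WT and 22.3% in R878H/+ CD11b+ cells.

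Further losses of this size belonged to genes of varied function. In CD11b+ cells the region with the largest loss, 55.8 points, was in the coding sequence of Fbxl8, an F-box protein gene, at 78.2% in WT and 22.4% in R878H/+ cells. The end of Lpar5, a receptor for lysophosphatidic acid, stood out by its high WT level of 91.3%, against 35.6% in R878H/+ cells. The end of Wipf2, which codes for a partner of the actin regulator WASP, was at 86.7% and 32.7%, and that of Msl3l2 at 65.8% and 15.6%. In CD4+ cells the largest loss, 56.9 points, was in the coding sequence of Trim47, a RING-finger ubiquitin ligase gene, at 80% in WT and 23.1% in R878H/+ cells. A region past the end of Stat6, the transcription factor of interleukin-4 signaling, was at 64.3% and 9.4%, and it also lies near the end of Nab2. The end of Borcs6, which codes for a subunit of a complex that positions lysosomes, was at 80.7% and 31.4%.

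A large loss in 1 cell type usually came with a loss in the other. Of the gene-end regions, 3770 pairs overlapped by at least 50% of both regions. The large losses were shared by 302 pairs (8.01%, against 8.1% of 135762 pairs over all autosomal regions), which was 61.9% of the 488 pairs with a large loss in CD11b+ cells and 62.1% of the 486 with one in CD4+ cells. Where only CD11b+ cells passed the limit, the median loss in CD4+ cells was still 15.9 points, and in the opposite case it was 14.6 points. Over all autosomal pairs these medians were 15.6 and 15.3 points. The R878H/+ mean was lower in both cell types in 3567 pairs (94.6%, against 94.8% of all autosomal pairs). Pearson's r of the losses over the 3770 pairs was 0.758 and Spearman's rho 0.725, against 0.767 and 0.727 over all autosomal pairs. They are given as a description, since paired regions share sequence, base composition and possibly mice. The agreement between the cell types was thus much the same at gene ends as across the listed autosomes. By gene, 446 of the 6220 ends listed in both cell types had a large loss in both (7.17%). This was 59.5% of such ends with a large loss in CD11b+ and 53.9% of those with one in CD4+ cells. The share by gene was computed for gene ends only, and the shares of pairs above are in another unit. It therefore has no background here.

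**Figure D4:**
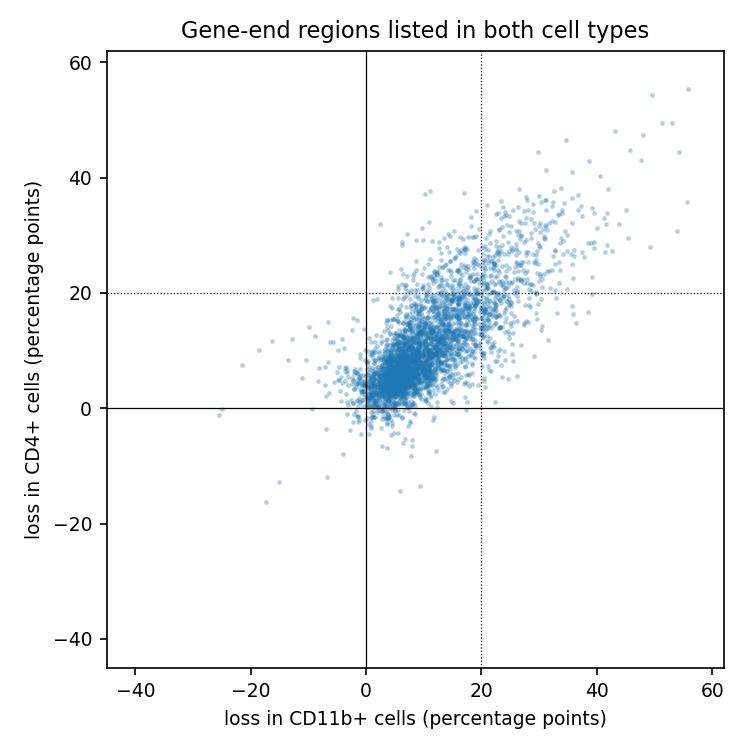
Loss of CpG methylation (WT minus R878H/+, percentage points) in CD4+ cells against that in CD11b+ cells for the 3770 gene-end regions listed in both; each point is a region pair, solid lines mark 0 and dotted lines 20 points. Most points, 94.6%, lie in the upper right quadrant, and 302 lie beyond both dotted lines.

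The labels of the cell types were checked on all regions listed within 1 kb of the whole marker genes, not only at their ends. Over a myeloid identity list, WT methylation was higher in CD4+ than in CD11b+ cells for 22 of 26 genes, with a median difference of 11.1 points, although Itgam, which codes for CD11b itself, differed little (85.4% in CD11b+ and 85.1% in CD4+ cells). For a T cell list it was lower in CD4+ cells for 18 of 28 genes, with a median CD4+ minus CD11b+ difference of -4.31 points, and Cd4 itself differed little (85% in CD11b+ and 83.4% in CD4+ cells). Bcl11b, a T lineage transcription factor, was at 66.7% in CD11b+ and 53.5% in CD4+ cells. Genes of B cells and other splenic cells were higher in CD4+ cells for 13 of 16 genes, by a median of 7.38 points, with Cd79a, a B cell receptor subunit, at 41.6% in CD11b+ and 66.4% in CD4+ cells. What share of B cells the CD11b+ preparations held, and its part in the results, was not tested. Among paired gene-end regions, the WT level was higher by more than 20 points in CD4+ cells in 162 pairs and in CD11b+ cells in 43 pairs.

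Hox genes, the clustered homeobox genes that set position in the embryo and self-renewal in blood progenitors, stood at much lower WT levels than other gene ends. Their 35 regions in CD11b+ and 60 regions in CD4+ cells had WT medians of 39.4% and 38.9%. The median loss was 13.6 and 11.5 points, against 6.53 and 6.83 points over all autosomal regions. A large loss was found in 6 of 35 and 13 of 60 Hox regions, where 6.94% and 6.17% of all autosomal regions had one. At the WT level of their medians large losses were frequent, with 32 of 211 and 38 of 219 gene-end regions from 30% to 40%.

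The Hoxb cluster held most of them. Past the end of Hoxb3 (chr11:96347728-96348865) the same region was listed in both cell types, at 67.3% in WT and 33.8% in R878H/+ CD11b+ cells, and CD4+ cells had 72.2% and 38.5%. Past the end of Hoxb6 the level was 78.8% and 45% in CD11b+ cells. In CD4+ cells it was at 73.7% and 35.5%. At Hoxb2, regions past the end were at 34.8% and 10.6% and at 58.1% and 22.5% in CD11b+ cells, and at 56% and 22.4% and at 59.8% and 33.2% in CD4+ cells. A region in the coding sequence of Hoxb2 went the other way in CD11b+ cells, at 0.429% in WT and 27.3% in R878H/+ cells. Hoxb4 passed the limit in CD11b+ cells with 86.7% and 63.5%, and Hoxb1, Hoxb5 and Hoxb7 passed it in CD4+ cells with losses from 21.6 to 33.9 points.

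In the Hoxa cluster, Hoxa6 had the largest Hox loss in CD11b+ cells, from 88.3% in WT to 46.5% in R878H/+ cells. Its CD4+ region of largest loss was at 90.3% and 63.3%. Hoxa9, a gene of stem cell self-renewal and leukemia, was at 60.4% and 23.4% in its 3' untranslated exon in CD4+ cells, Hoxa2 at 51% and 13.2% past its end, and Hoxa10 at 38.5% and 17.7%. No Hoxc or Hoxd end passed the limit in either cell type, and many of those regions were below 40% in WT cells.

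Among regulators of hematopoietic stem cells, 3 of 26 regions in CD11b+ and 3 of 35 in CD4+ cells (11.5% and 8.57%) had a large loss, against 6.94% and 6.17% of all autosomal regions. The median losses were 10.3 and 8.4 points, and the WT medians 87.4% and 92.1%. The end of Gata2, a transcription factor of stem and progenitor cells, was at 43.5% in WT and 12.4% in R878H/+ CD11b+ cells, against 54.6% and 18.5% in CD4+ cells. A region at the end of Mycn was at 52.2% and 29.6% in CD11b+ and at 49.7% and 21.5% in CD4+ cells, while another there lost only 9.5 and 7.75 points. Lmo2, a partner of GATA factors, passed the limit in CD11b+ cells with 50.4% and 26.9%, and Cd34, the stem cell surface marker, in CD4+ cells with 72.6% and 51.6%.

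Myeloid identity genes had a large loss in 4 of 25 regions in CD11b+ and 6 of 33 in CD4+ cells (16% and 18.2%, beside 6.94% and 6.17% of all autosomal regions). Their median losses were 12.8 and 9.92 points, and their WT medians 76% and 83.9%. Of all gene-end regions from 70% to 80% in WT CD11b+ cells, 21.6% had a large loss. In CD4+ cells 7.98% of those from 80% to 90% did. Spi1, which codes for the myeloid master regulator PU.1, was at 85.2% in WT and 55.2% in R878H/+ CD11b+ cells in its coding sequence, and at 88.3% and 51.5% in CD4+ cells. Past the end of Cebpa, the transcription factor of granulocyte commitment, the level was 57.6% and 34.5% in CD11b+ cells, and CD4+ cells had 84.8% and 58.2%. Cebpb, its relative in inflammatory macrophages, was at 65.8% and 36.5% past the end in CD11b+ cells. In CD4+ cells it was at 72.2% and 47%. Prtn3, a neutrophil granule protease, was at 74.4% and 52.9% in CD11b+ cells, and at 71.2% and 35.2% and at 66% and 38.3% in its 2 CD4+ regions. Csf2ra, a receptor chain for GM-CSF, passed the limit in CD4+ cells with 60% and 38.3%.

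T cell markers passed the limit about as often as all autosomal regions (6.94% and 6.17%), in 1 of 18 regions in CD11b+ and 2 of 30 in CD4+ cells (5.56% and 6.67%), and the median losses of the T cell list were 10.8 and 10.3 points. Ccr7, the lymph node homing receptor, was at 49.8% in WT and 26.8% in R878H/+ CD11b+ cells. Ctla4, the inhibitory receptor of regulatory T cells, was at 65.4% and 37.6% in CD4+ cells, and Thy1, a T cell surface glycoprotein, at 84% and 57.7%. Of the markers of B cells and other splenic cells, 1 of 12 regions in CD11b+ cells passed, at Itga2b, the platelet integrin, with 46.3% and 22.8%, and 0 of 14 in CD4+ cells. Their median losses were 9.49 and 5.51 points.

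Inflammatory signaling genes had a large loss in 4 of 26 regions in CD11b+ and 4 of 29 in CD4+ cells (15.4% and 13.8%, against 6.94% and 6.17% of all autosomal regions). Their median losses were 10.2 and 9.03 points, and their WT medians 86.6% and 86.5%. The end of Socs3, a feedback inhibitor of cytokine signaling, was at 53.1% in WT and 19.4% in R878H/+ CD11b+ cells, against 58.8% and 33.5% in CD4+ cells. The end of Tgfb1, an anti-inflammatory cytokine, was at 43.8% and 12.8% in CD11b+ and at 59.3% and 29.3% in CD4+ cells. The chemokine gene Ccl4 was at 29.6% and 3.85% in CD11b+ cells, and Tlr9, the receptor for unmethylated CpG DNA, at 42.6% and 22.2%. In CD4+ cells Tnf was at 87.5% and 56.6% and Cxcr2, a neutrophil chemokine receptor, at 89.8% and 67.4%.

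Of the osteoclast list, 1 of 28 regions in CD11b+ and 2 of 27 in CD4+ cells (3.57% and 7.41%) had a large loss, against 6.94% and 6.17% of all autosomal regions, and the median losses of 6.26 and 6.5 points were near those of all autosomal regions. The region past the end of Ctsk, the bone-resorbing protease cathepsin K, was at 44.1% in WT and 20.7% in R878H/+ CD11b+ cells, and CD4+ cells had 65.7% and 38.5%. A region at the end of Fos, a transcription factor required for osteoclasts, was at 80.5% and 51.5% in CD4+ cells. Other regions at that end lost 12.4 and 1.525 points in these cells. In the mTOR list 2 of 28 and 3 of 38 regions (7.14% and 7.89%) passed the limit, near those background shares, with median losses of 7.02 and 6.14 points. Stk11, which codes for the upstream kinase LKB1, was at 81.4% and 54.8% in CD11b+ and at 78% and 45.4% in CD4+ cells. Akt2 was at 79% and 58% in CD11b+ cells, and Castor1 and Rraga, which relay amino acids to mTORC1, were at 58.5% and 34.4% and at 31.9% and 10.2% in CD4+ cells.

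The end of the mutated gene itself had no large loss. Dnmt3a had 3 regions in CD11b+ cells with losses from 5.75 to 12 points and 2 in CD4+ cells with losses of 1.43 and 12 points, from WT levels of 86.8% to 91.4%. Of the list of DNA methylation enzymes and readers, 0 of 17 regions in CD11b+ cells and 3 of 20 in CD4+ cells passed the limit, where 6.94% and 6.17% of all autosomal regions did in CD11b+ and CD4+ cells, with median losses of 5.75 and 4.77 points. Those were Dnmt3b, the sister enzyme (85.1% in WT and 61.1% in R878H/+ cells), Dnmt3l, its cofactor in germ cells (58.3% and 34.5%), and Apobec2 (60.6% and 33.4%). Among writers and readers of histone H3 lysine 36 methylation, 0 of 16 and 2 of 17 passed (the same background shares apply here and to the next list), at Phf1 with 55.1% and 32.4% and at Phf19 with 61.2% and 40%, and the median losses were 6.29 and 6.65 points. Cleavage and polyadenylation factors, which act at transcript ends, had 0 of 8 and 0 of 11 with median losses of 5.72 and 5.98 points, and their WT medians of 94.4% and 94.9% lay in the range in which large losses were rare.

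The gains above 20 points lay mostly in unmethylated coding sequence of CD11b+ cells. Of the 16 gene-end regions with a gain above 20 points, 15 were below 10% in WT cells and 12 lay in coding sequence. They belonged to 15 genes, and 8 had exactly 10 CpG cytosines. The largest was in the 3' untranslated exon of Cebpb, at 1.25% in WT and 43.6% in R878H/+ cells, while the region past the end of the same gene had a large loss. Borcs6 was at 2.35% and 37.8% in its coding sequence, and its CD4+ region named above lies farther towards the end. Another Borcs6 region had a large loss in CD11b+ cells, of 34.8 points from 74.6% in WT. The CD4+ region paired with it lost 20.75 points. Klf2, a transcription factor of lymphocyte quiescence, was the exception to the low WT level, at 51.2% and 83.1%.

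The other gains, named after their values were seen, were at Akt1s1, an mTORC1 inhibitor subunit (0.625% and 30.6%), Cited2, Ltb4r1, Lyl1, Jun, Sept1, Pcbp1, Prr7, Acta1, Fbxl15 and, with 2 regions, Kcna3, besides Hoxb2 above. Their losses ran from -29.98 to -21.35 points. Gains of this kind were also present away from gene ends in CD11b+ cells, where 764 of 836 were below 10% in WT cells, and they made up 9.33% of all such unmethylated regions, against 6.88% of the 218 at gene ends. In CD4+ cells 0 of 242 unmethylated gene-end regions had a gain above 20 points. The R878H/+ CD11b+ group was the one with duplicate entries, and whether 1 preparation carries these gains was not tested. For 10 of the 16 regions no CD4+ region overlapped. In the other 6 the CD4+ means lay between 0.865% and 14.3% in WT and between 0.825% and 7.63% in R878H/+ cells. Some of these overlaps were small, about 7 bp at Acta1 and 24 bp at Ltb4r1. Such CD4+ means need not describe the bases with the gain.

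**Figure D5:**
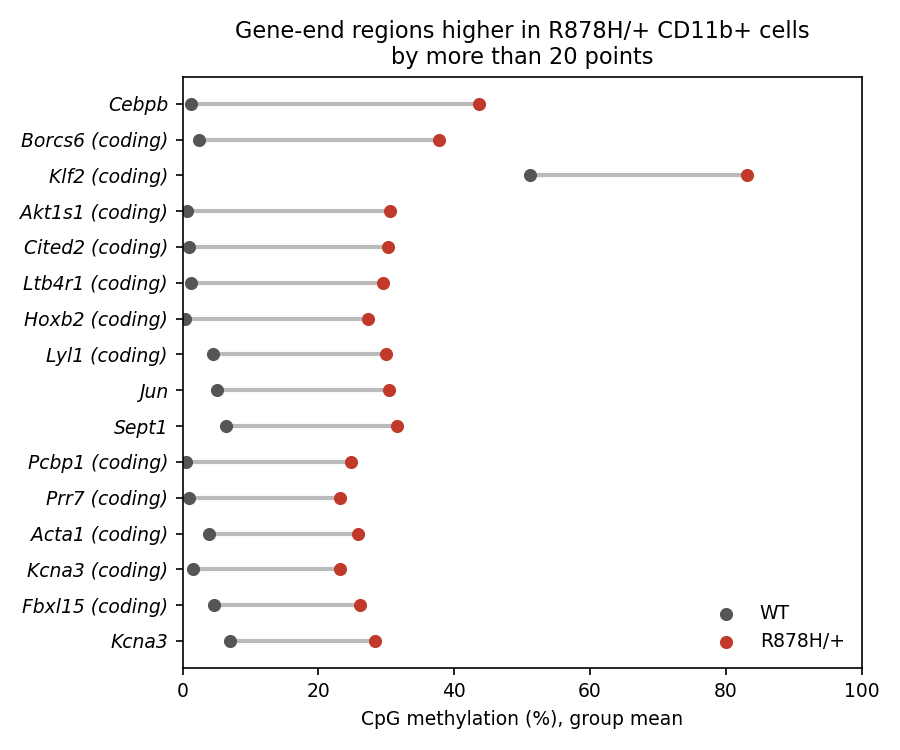
Group mean CpG methylation (%) in WT (grey) and R878H/+ (red) CD11b+ cells for the 16 gene-end regions that were higher in R878H/+ cells by more than 20 points, ordered by the size of the gain; regions in coding sequence are marked, and no error between mice was available. All but Klf2 start below 10% in WT cells, and Cebpb reaches 43.6%.

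The largest gains in CD4+ cells did not reach the limit. A region in the coding sequence of the zinc finger gene Zfp35 was at 62.6% in WT and 79.3% in R878H/+ cells. A region of the potassium channel gene Kcnh6 was at 40% and 56.3%, and the end of Cnot2, a subunit of the CCR4-NOT deadenylase, was at 58.1% and 72.8%.

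Few gene ends had a large loss from a nearly full WT level, and the same held for other autosomal regions. At 90% or more in WT cells, 0.185% and 0.441% of gene-end regions had one, against 0.253% and 0.39% elsewhere. The following ends were named after their values were seen. Of the 11 in CD11b+ cells with at least 90% in WT, Lpar5 came first, followed by Ggn, a germ cell gene, at 90.5% and 48.7%. Ebi3, a subunit of interleukin-27 and interleukin-35, was at 90.2% and 66.5%, and Rara, the retinoic acid receptor alpha, at 93.5% and 72.8%. In CD4+ cells, after Skida1, the homeobox gene Hlx was at 90.2% and 49.3% and Rps6ka4, a stress-activated kinase gene, at 90.5% and 54%. Ggn and Ebi3 had such a loss in CD4+ cells too, at 94% and 60% and at 90.8% and 58.1%. Cish, an inhibitor of cytokine signaling in T cells, was at 90.7% and 59.2%.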

How the data were processed

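Bisulfite libraries of splenic CD11b+ and CD4+ cells were mapped to mm10 by the authors with BISCUIT, and regions were formed from CpG methylation ratios with metilene. FastQC is named in the submitters' processing notes. Versions and a coverage minimum are not given in the sources used here. The 2 deposited tables, 1 per cell type, give, region by region, a group mean of CpG methylation in percent for either genotype. They also hold a count of CpG cytosines over both strands, at least 10, since in most regions it exceeded the CpG dinucleotides of the sequence, and in none their doubled number. Columns of the authors' own comparisons (q-value, difference and a pair of p-values) were not used. Columns of per-sample values numbered 0, and depth is not given, so no test, interval between mice or coverage filter was possible. Tables carry no group names, and the first mean was taken as WT because the authors' density plots have WT higher.

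Starts were treated as 0-based and are printed from 1. Gene ends and starts came from GENCODE release 21, and sequence, GC content and repeat masking from the RefSeq FASTA of GRCm38. Regions were assigned to the nearest gene end by their nearest base. The assignment was tested on simulated regions. Tables were computed in Python 3.11.15 with pandas 2.3.3 and numpy 2.4.6, and figures were drawn with matplotlib 3.10.9. The members, gene lists and comparisons were chosen with earlier results of these data known. Named in the text were the 8 largest losses and 3 largest gains per cell type, the 8 gene ends with the largest loss in both, listed genes with a loss above 20 points, and Dnmt3a. Alternatives changed the distance to ends and starts, the gene models, the minimum of cytosines, the weight of a region, regions near several ends and the size of a called loss.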

Additional observations from a re-analysis of the deposited data

Results flagged for a closer look

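Of the 3770 gene-end regions listed in both cell types, 183 (4.85%) had losses of opposite sign, and 3 of them exceeded 10 points in each direction. These results were singled out because the difference between the genotypes ran in opposite directions in the 2 cell types. The difference was not tested. Opposite signs were not counted over all autosomal pairs. The share lower in both cell types was near the background there, 94.6% of gene-end pairs against 94.8% of all autosomal pairs. In the 3' untranslated exon of Tmem26, the loss was -12.82 points in CD11b+ cells (62.2% in WT and 75% in R878H/+ cells) and 12.07 points in CD4+ cells (62.5% and 50.5%). In the coding sequence near the end of Stard5, a lipid transfer gene, it was -18.53 points in CD11b+ cells (32.6% and 51.1%) and 10.1 points in CD4+ cells (20.1% and 9.96%). Near the end of Dus2, a tRNA-modifying enzyme gene, it was -16.32 points in CD11b+ cells (39.1% and 55.5%) and 11.65 points in CD4+ cells (46.2% and 34.5%). The matched regions did not have the same borders, and whether 1 preparation carries a value was not tested.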

How the results depend on the processing

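The median loss of 6.81 points in CD11b+ and 6.85 points in CD4+ cells stayed positive under every alternative tried. It became 6.927 and 6.97 points within 500 bp of the end, 10.85 and 9.887 points with more than 20 CpG cytosines, and 6.985 and 7.05 points with regions weighted by cytosines. The share with a large loss, 7.43% and 6.86%, became 25% and 19.8% with more than 20 cytosines, 29.99% and 29.52% with a limit of 10 points, and 1.624% and 1.569% with 30 points. In CD11b+ cells it became 6.923% more than 2 kb from a start. The 446 gene ends with a large loss in both cell types became 267 within 500 bp, 753 within 2 kb, 40 with more than 20 cytosines, 1908 with a limit of 10 points and 82 with 30 points, which the construction of each alternative sets. The other 30 of these values moved less than the 95% interval over regions or, for counts, less than 1.5 times, and no value reversed. Intervals over regions (6.7 to 6.925 points in CD11b+ and 6.738 to 6.938 points in CD4+ cells for the median) cover the choice of regions and not the spread between mice. No paired analysis was possible because the tables hold group means only, and for the same reason no replicate could be left out. The tables give no depth per region, so the precision of a single region is not known, and every direction rests on the reading of the first mean as WT.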
